A study of Mus musculus with 28 samples.

Results

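Larp4 and Ccp110 are 2 mouse genes in whose messenger RNA the study assayed an edited cytidine in both liver and pancreas of A3B mice. They were taken by name, as 2 of 35858 gene symbols in the transcript-level libraries of liver and pancreas (set 2) and 2 of 24845 in the gene-level table of liver and lung (set 1). Set 2 holds 6 A3B and 2 control livers and 6 A3B and 2 control pancreases, and set 1 holds 3 A3B and 3 control livers and 3 A3B and 3 control lungs. The editing itself was not measured here, since the files give RNA levels. The comparisons ask whether the level or the isoforms of these 2 transcripts, edited in liver and pancreas, differ when A3B is induced. In lung samples from 3 mice, the study detected no editing by Sanger sequencing at the positions it had found edited in the liver.

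The A3B mice carried TetO-A3B-tGFP, human APOBEC3B fused to turboGFP behind a doxycycline-inducible promoter in the ColA1 locus, together with CAGs-rtTA3, a driver that is active in most adult tissues, and were adult when the doxycycline diet began. All animals of set 2 are labelled with 10 days of diet, controls 45 and 168 included, and those controls are listed by the study as A3B without the driver, although a legend of the study calls control animals untreated. In set 1, A3B livers 23 and 28 are labelled with 14 days, A3B liver 70 and the A3B lungs with 10 days, and all controls with 15 days, whereas the study's list of animals gives no diet for controls 11, 88, 91 and 92. Groups follow the sample titles, because some genotype labels go against them. A3B pancreases 44 and 137 are labelled A3B alone, control pancreases 45 and 168 and control liver 11 are labelled as carrying the driver, and control lung 87 is labelled CAGs alone. In set 1 the transgene was at 705 to 1705 TPM (a transcript's share of its library, corrected for length) in A3B livers, at 90.6 to 281 TPM in A3B lungs and at 0.0928 to 0.526 TPM in the 6 control libraries, control liver 11 included at 0.144 TPM. In all, 5 A3B mice (44, 49, 125, 137 and 153) and both controls of set 2 gave both liver and pancreas, and mice 70 and 91 of set 1 gave both liver and lung.

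LARP4, a La-related protein, binds poly(A) tails and the poly(A)-binding protein PABPC1, and is known for protecting messenger RNAs from tail shortening. CP110, the product of Ccp110, caps the distal end of the centriole together with CEP97 and KIF24, and its removal from the mother centriole precedes the growth of a primary cilium. CP110 is also a target of cyclin F, the product of Ccnf, and is spared from degradation by the deubiquitinase USP33. APOBEC3B is a cytidine deaminase best known for acting on single-stranded DNA.

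The assayed segments were found by matching the study's primers to GENCODE M21 transcripts (GRCm38), and the 2 sites are shown because the isoform results below turn on which transcripts contain them. The capitals mark the stretch TCCGNGTG that both sites share, in which the cytidine taken as the assayed one follows the leading T.
Larp4 site: agtctgttctgggTCCGAGTGtgtgcaaa
Ccp110 site: gaacactcaggacTCCGTGTGtatcagtg
The Larp4 window lies on the plus strand at chr15:100012691-100012719 (GRCm38), with the cytidine at 100012705, in exon 16 and 531 bases after the stop codon, thus in the 3′ UTR. The Ccp110 window lies on the plus strand at chr7:118736639-118736667, with the cytidine at 118736653, in the last exon, 1333 bases after the stop codon of Ccp110-202 and 4196 bases after that of Ccp110-203. Each cytidine was placed by the 1 match to TCCGNGTG in its segment, and was not read from the edited positions that the study lists. The letters at the sites are therefore no finding. On the RNA strand they occur in 0.496% of 101737 windows of 278 bases tiled over annotated 3′ UTRs, the length of the Larp4 segment, in 0.687% of 70490 windows of 386 bases, the length of the Ccp110 segment, and in the 3′ UTRs of 544 of 21022 genes. The Larp4 segment holds 1 TCC trinucleotide and the Ccp110 segment holds 7, so the position within the Ccp110 segment rests on that match.

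Larp4 (ENSMUSG00000023025.16, chr15:99970065-100016358) has 9 transcripts in the files, of which Larp4-201, Larp4-202 and Larp4-209 contain the site. Ccp110 (ENSMUSG00000033904.16, chr7:118712552-118737024) has 6, of which Ccp110-201, Ccp110-202, Ccp110-203 and Ccp110-205 contain it. Of these 15 transcripts, 9 reached a mean of 0.1 TPM in a group and are described by name, and the other 6 (Larp4-201, Larp4-203, Larp4-204, Larp4-205, Ccp110-201 and Ccp110-204) stayed under it in every group. The filter on low counts passed 9 of the 15 to the test in the liver and 8 in the pancreas, where Larp4-206 did not pass, and Ccp110-205 passed in neither. The antisense gene 2310068J16Rik overlaps the first part of Larp4. The kit was stranded, but the strand setting of the quantification is not given in the sources used here.

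Set 2 libraries held between 65161064 and 118976013 estimated counts. Larp4 drew 1514 to 18125 and Ccp110 71 to 2597 of them, so that counting error was small for Larp4 and larger for Ccp110 in control pancreas 45, the library with 71. A3B liver 48 stood apart, with 21.5% mitochondrial counts against 3.30% to 10.1% in the other A3B livers. In the control pancreases, 62.2% and 59.5% of all counts fell on only 10 genes, against 12% to 20.4% in the A3B pancreases. Tissue labels held against their markers, with summed hepatocyte markers of 32745 TPM or more in every liver of set 2 and summed acinar markers of 67450 TPM or more in every pancreas. In the lungs the summed lung markers were at least 18518 TPM. Markers of other tissues were also present. Summed hepatocyte markers were at 3.99 to 659 TPM in control lungs, 18.9 to 595 TPM in A3B lungs and up to 958 TPM in A3B pancreases. Summed acinar markers reached 581 TPM in A3B livers of set 2 (median 16.2 TPM) and 126 TPM in their controls. The source of these values was not tested.

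In the liver of set 2, both transcripts were more abundant in every A3B library than in either control. Larp4 was at 16.6 and 17.4 TPM in control livers 168 and 45 and at 17.4 to 115 TPM in A3B livers (median 46.2 TPM). The lowest A3B liver was 48, which lay just above control 45, and the highest was 125. The means were 52.1 ± 34.3 TPM (SD, n = 6) and 17.0 ± 0.51 TPM (SD, n = 2), a ratio of 3.06. Ccp110 was at 1.26 and 1.44 TPM in control livers 45 and 168 and at 2.92 to 9.62 TPM in A3B livers (median 7.37 TPM). Its lowest A3B liver was still 2.03 times the highest control. The means were 6.6 ± 2.88 TPM (SD, n = 6) and 1.35 ± 0.12 TPM (SD, n = 2), a ratio of 4.89. A position of all A3B livers above both controls was shared by 24.3% of the genes tested.

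Neither change passed the test across all genes in this liver comparison. By edgeR's quasi-likelihood test with TMM scaling and Benjamini-Hochberg adjustment, the log2 fold change was 1.19 ± 0.43 (SE) for Larp4 (adjusted p = 0.143) and 1.83 ± 0.50 for Ccp110 (adjusted p = 0.0721), where 3.66% of 17365 genes were called. Larp4 lay above 82.4% and Ccp110 above 89.9% of the fold changes of all genes tested, whose median was 0.21. Ccp110 was called by DESeq2 (1.76, adjusted p = 0.00737) and by edgeR without A3B liver 49 (adjusted p = 0.0298), and both genes were called with counts scaled by their totals alone (adjusted p = 0.0420 for Larp4 and 0.0333 for Ccp110). Of all genes, DESeq2 called 2396 of 17365, edgeR without A3B liver 49 called 1599 of 17053, and total counts called 1120 of 17365. Without A3B liver 48 the log2 fold changes were 1.16 (adjusted p = 0.151) for Larp4 and 1.68 (adjusted p = 0.0846) for Ccp110. The summed hepatocyte markers were at 32745 to 84066 TPM in A3B livers and at 83199 and 141642 TPM in controls, with none of 8 markers called and 4 at an unadjusted p under 0.05, and the summed immune markers were at 18.8 to 461 and 134 to 159 TPM with none of 12 called and 0 at an unadjusted p under 0.05. Their part in the result was not tested. In bulk tissue, fewer cells of a type and less RNA per cell cannot be told apart.

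In the pancreas, TPM was again higher in every A3B library, but the fold change depended on the scaling. Larp4 was at 2.95 and 4.62 TPM in control pancreases 45 and 168 and at 13.4 to 26.0 TPM in A3B pancreases, with a median of 17.4 TPM. The groups did not overlap, and the lowest A3B pancreas was 2.90 times the highest control. Ccp110 was at 0.154 and 0.769 TPM in the controls and at 2.33 to 4.60 TPM in A3B pancreases, with a median of 3.43 TPM. It did not overlap either, with the lowest A3B pancreas 3.03 times the highest control. The means were 18.4 ± 4.84 against 3.79 ± 1.18 TPM for Larp4 and 3.44 ± 0.81 against 0.461 ± 0.435 TPM for Ccp110 (SD, n = 6 and n = 2). As many as 70.8% of the genes tested had every A3B pancreas above both controls in TPM.

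Scaled by TMM, the log2 fold change in the pancreas was −0.34 ± 0.27 (SE) for Larp4 (adjusted p = 0.364) and 0.47 ± 0.34 for Ccp110 (adjusted p = 0.313) by edgeR, where 31.9% of 19123 genes were called. With total counts it was 1.93 (adjusted p = 0.000458) and 2.51 (adjusted p = 0.00306), and by limma on log2(TPM + 1) it was 2.01 (adjusted p = 0.000186) and 1.61 (adjusted p = 0.000432). These 2 settings called 13683 and 12923 of the 19123 genes. Between TMM and total counts the median of all genes moved from 0.09 to 2.29. Relative to that median, Larp4 was at −0.43 and −0.35 and Ccp110 at 0.37 and 0.22 under TMM and total counts, whereas on the log2(TPM + 1) scale both lay above it, at 0.77 and 0.38. With counts scaled from TPM and gene length, Larp4 was at 0.043 (adjusted p = 0.925, edgeR) and Ccp110 at 0.93 (adjusted p = 0.0630, edgeR), which relative to the median was −0.064 and 0.82. Without control pancreas 45 the Ccp110 value fell to 0.05 (adjusted p = 0.931) and without control 168 it was 1.13 (adjusted p = 0.0590). The TMM factors were 0.210 and 0.443 in the control pancreases and 1.30 to 1.79 in the A3B pancreases. The summed acinar markers were at 67450 to 183631 TPM in A3B pancreases and at 388806 and 397145 TPM in controls, with 9 of 10 called lower, while 5 of 7 fibroblast and 4 of 6 duct markers were called higher. The summed immune markers were at 1167 to 3490 TPM in A3B pancreases and at 37.3 and 565 TPM in controls, with 4 of 12 called higher. Their part in the values of Larp4 and Ccp110 was not tested.

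**Figure D1:**
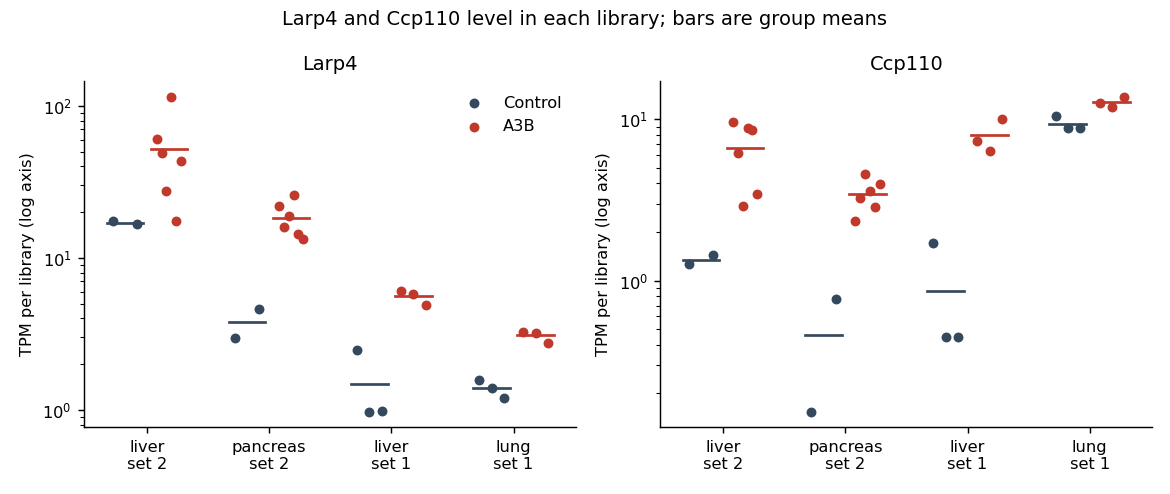
Level of Larp4 and Ccp110 in TPM (log axis) in each of the 28 libraries, control in dark blue and A3B in red, with group means as bars. All A3B libraries lie above all controls of their tissue and set, narrowly for Larp4 in the liver of set 2, where the lowest A3B library exceeds the highest control by a factor of 1.004.

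**Figure D2:**
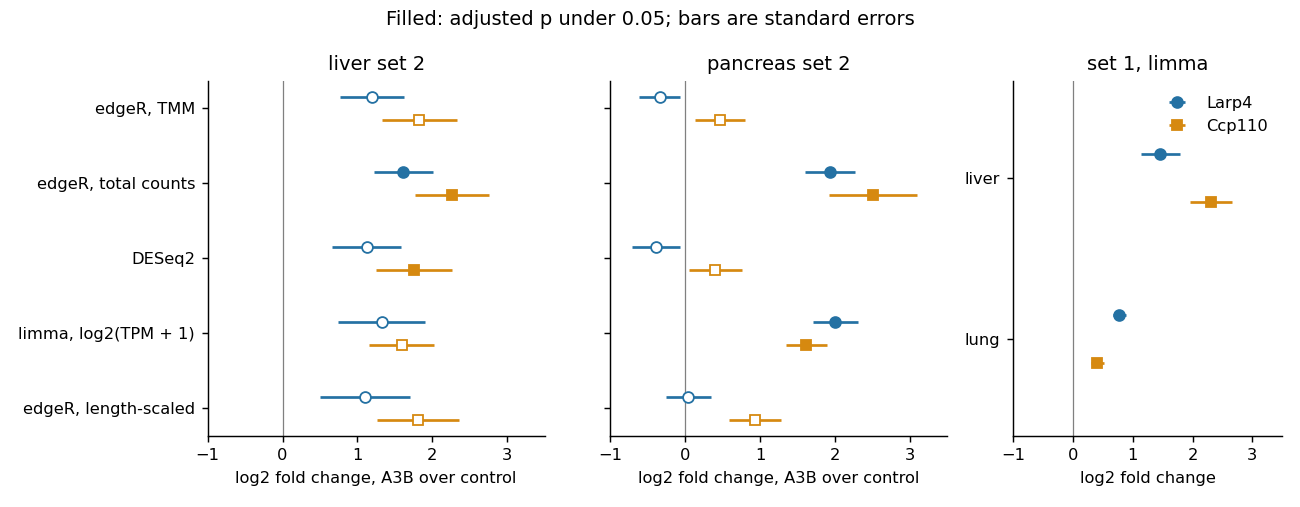
The log2 fold change of A3B over control with its SE for both genes under 5 settings in set 2 and by limma in set 1, filled where the adjusted p passed 0.05. Liver values lie between 1.10 and 2.26 under all 5 settings, while pancreas values range from −0.39 to 2.51.

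Both genes were called higher in A3B livers and in A3B lungs of set 1, a separate table whose TPM values are not on the scale of set 2. Larp4 was at 0.975, 0.979 and 2.47 TPM in control livers 91, 92 and 11 and at 4.93, 5.78 and 6.03 TPM in A3B livers 70, 28 and 23. Ccp110 was at 0.445, 0.448 and 1.70 TPM in control livers 92, 91 and 11 and at 6.38, 7.36 and 10.1 TPM in A3B livers 28, 23 and 70. Control liver 11, the one labelled as carrying the driver, was the highest control for both genes, and no control reached an A3B liver, an order shared by 28.5% of the genes tested. By limma on log2(TPM + 1) the log2 difference was 1.46 ± 0.32 (SE, adjusted p = 0.0416) for Larp4 and 2.31 ± 0.36 (adjusted p = 0.0223) for Ccp110, where 7.93% of 11507 genes were called, 6.07% higher, and the median of all genes was 0.39. Ccp110 exceeded 97.9% of the genes tested and Larp4 exceeded 89.8%.

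With a pseudocount of 0.1 the liver differences were 1.98 for Larp4 (adjusted p = 0.0423, limma) and 3.28 for Ccp110 (adjusted p = 0.0248, limma). These liver calls rested on few libraries and on the filter. Without a filter on low values the adjusted p was 0.0761 for Larp4 and 0.0620 for Ccp110, and with each library centred on its median the Larp4 difference was 1.004 (adjusted p = 0.0667). Left out in turn, control 91 or 92 or A3B liver 23 took the adjusted p of Larp4 to 0.193, 0.209 and 0.107 and that of Ccp110 to 0.116, 0.122 and 0.0681, and without A3B liver 28 that of Larp4 was 0.0529. Without control 91, control 92 or A3B liver 23, the genes called in all numbered 1, 9 and 55, against 913. Without control liver 11 the differences were the largest of these, 1.73 (adjusted p = 0.0236) and 2.61 (adjusted p = 0.0204). The summed hepatocyte markers were at 6094 to 7713 TPM in A3B livers and at 8228 to 9360 TPM in controls, with 1 of 8 called, lower. Its part in the result was not tested.

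In the lung, Larp4 was at 1.20, 1.40 and 1.58 TPM in controls and at 2.78, 3.23 and 3.28 TPM in A3B lungs, means of 1.39 ± 0.19 and 3.09 ± 0.28 (SD, n = 3 each). Ccp110, at a higher level, was at 8.78, 8.85 and 10.4 TPM in controls and at 11.9, 12.6 and 13.8 TPM in A3B lungs, means of 9.35 ± 0.92 and 12.8 ± 0.97. Neither gene overlapped between the groups, as for 23.3% of genes in that direction. The log2 difference was 0.78 ± 0.11 (SE, adjusted p = 0.00504, limma) for Larp4 and 0.41 ± 0.11 (adjusted p = 0.0248, limma) for Ccp110, but 36.8% of 13651 genes were called in this tissue and 16.1% were called higher. Larp4 kept its call when any 1 lung was left out, with adjusted p-values of 0.0108 to 0.0222. Ccp110 lost it in 5 of 6 such fits, those without control 88 or 91 or any A3B lung, where the adjusted p was 0.0527 to 0.0720. The summed markers of multiciliated cells were at 175 to 237 TPM in A3B lungs and at 176 to 308 TPM in controls, and none of 6 was called, with 2 at an unadjusted p under 0.05. The summed lung markers were at 18518 to 20074 and 19667 to 20990 TPM, with 2 of 8 called lower. The summed immune markers were at 1393 to 1675 TPM in A3B lungs and at 1791 to 2060 TPM in controls, without overlap, and 1 of 12 was called lower. The part of these markers in the values of Larp4 and Ccp110 was not tested.

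The A3B effect on Ccp110 differed between lung and liver. The difference of its log2 effect, lung minus liver, was −1.90 ± 0.36 (SE, adjusted p = 0.0115, limma over all 12 libraries of set 1), where 10.7% of 13477 genes were called, and all 12 fits without 1 library kept the call. Of the 1448 genes called, 1187 had a negative difference, and the median of all genes was −0.39. Relative to that median, Ccp110 was at −1.51 and Larp4 at −0.30. With mouse as a replicate block the difference for Ccp110 was −2.08 (adjusted p = 0.00238), and the number of called genes rose from 1448 to 2607. The difference for Larp4 was −0.68 ± 0.30 (adjusted p = 0.153). It was called without control liver 11 (−0.95, adjusted p = 0.00898), in a fit that called 2825 of 13539 genes. With a pseudocount of 0.1 the difference for Ccp110 was −2.84 (adjusted p = 0.0187). Between pancreas and liver of set 2 the difference was −1.38 ± 0.50 (SE, adjusted p = 0.0834, edgeR) for Larp4 and −1.21 ± 0.58 (adjusted p = 0.179, edgeR) for Ccp110, where 11.9% of 19908 genes were called. With total counts it turned to 0.32 and 0.25, as the median of all genes moved from 0.03 to 1.59. Relative to that median it was −1.41 and −1.27 for Larp4 and −1.25 and −1.34 for Ccp110 under TMM and total counts. DESeq2, which called 3762 of 19908 genes, called the difference for Larp4 (−1.47, adjusted p = 0.0416).

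Both tissues of the same mouse could also be compared without a model. In all 7 mice with liver and pancreas, Larp4 was lower in TPM in the pancreas. Examples are 18.8 against 27.7 TPM in A3B mouse 49, 26.0 against 115 TPM in A3B mouse 125 and 2.95 against 17.4 TPM in control 45. Ccp110 was lower in the pancreas of 5 of the 7, and higher in A3B mice 49 (4.60 against 2.92 TPM) and 153 (3.97 against 3.46 TPM). In set 1, Ccp110 was higher in the lung than in the liver of both mice with both tissues, at 8.85 against 0.448 TPM in control 91 and at 11.9 against 10.1 TPM in A3B mouse 70. Larp4 was at 1.20 against 0.975 TPM in control 91 and at 3.23 against 4.93 TPM in A3B mouse 70, so the order of the tissues was not the same in the 2 mice.

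Isoform by isoform, Larp4 was carried by Larp4-202, the longest protein-coding transcript at 6530 bases, which contains the site, and by several shorter transcripts. Larp4-202 was at 5.0 and 6.78 TPM in control livers and at 9.70 to 20.2 TPM in A3B livers, a log2 fold change of 0.73 ± 0.41 (SE, edgeR, adjusted p = 0.497). In the pancreas it was at 2.77 and 4.47 TPM in controls and at 8.70 to 19.1 TPM in A3B mice, a log2 fold change of −0.02 ± 0.30 under TMM (adjusted p = 0.967) and 1.80 with total counts (adjusted p = 0.00544, edgeR). With total counts, 24543 of 67317 transcripts were called and the median of all transcripts was 2.31, above the value of Larp4-202. Larp4-209, a protein-coding transcript of 3935 bases with the site, was at 0.728 and 3.06 TPM in control livers and at 0 to 25.6 TPM in A3B livers, so the groups overlapped.

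The remaining Larp4 transcripts of note lack the site. Larp4-207 (protein coding, 2192 bases) was at 2.40 and 2.93 TPM in control livers and at 0.219 to 16.9 TPM in A3B livers. Larp4-208 (processed transcript, 643 bases) was at 4.64 and 5.33 TPM in controls and at 0 to 38.1 TPM in A3B livers. Larp4-206 (nonsense-mediated decay, 1499 bases) was at 1.39 and 1.65 TPM in controls and at 0 to 13.7 TPM in A3B livers. In A3B liver 48 the transcripts 206, 208 and 209 were at 0 and 98.2% of the gene's TPM was Larp4-202, against 17.6% to 57.8% in the other A3B livers.

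In the pancreas, Larp4-207 and Larp4-208 were near or at 0 in controls and above 0 in all 6 A3B mice, whereas Larp4-206 was at 0.742 TPM in A3B mouse 44 and at or near 0 elsewhere. Of the genes tested, 70.8% had every A3B pancreas above both controls in TPM, and the share of transcripts with that order was not counted. Larp4-208 had no estimated count in either control and 14.4 to 189.6 counts in the 6 A3B pancreases. Set against a floor of 3 counts per control library, its mean was at least 7.19-fold higher in A3B pancreases on the TMM scale and at least 38.2-fold higher on the total-count scale, and edgeR called it (adjusted p = 0.0212), where 16.3% of 67317 transcripts were called. With no count in the controls it passed the filter on low counts through the A3B libraries alone, so it had to differ, and the call is no support beyond the counts. That call was lost without control pancreas 45 (adjusted p = 0.0678) or 168 (adjusted p = 0.0665). Larp4-207 was at 0 and 0.131 TPM in controls and at 0.494 to 4.08 TPM in A3B pancreases, a log2 fold change of 3.67 ± 1.32 (SE, adjusted p = 0.0907, edgeR). It was called by DESeq2 (adjusted p = 0.00534) and with total counts (adjusted p = 0.0260), but with counts of 0 and 22.7 in the controls it too passed the filter through the A3B libraries. These settings called 17302 and 24543 of 67317 transcripts. Larp4-209 was at 0 in both controls and above the floor in 3 of 6 A3B pancreases, highest in mouse 44 at 3.14 TPM.

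Ccp110 was carried by 3 transcripts in most libraries. Ccp110-202 (protein coding, 5073 bases, with the site) was at 0.686 and 0.703 TPM in control livers and at 0.598 to 5.76 TPM in A3B livers, where only liver 48 fell below the controls. Ccp110-203 (protein coding, 6948 bases, with the site) was at 0.222 and 0.235 TPM in control livers and at 0.418 to 1.47 TPM in A3B livers. Ccp110-206 (protein coding, 997 bases, without the site) was at 0.319 and 0.439 TPM in control livers and at 0.534 to 2.68 TPM in A3B livers. Their log2 fold changes in the liver were 1.44 ± 0.73, 1.45 ± 0.68 and 1.73 ± 0.78 (SE), none of them called by edgeR (adjusted p = 0.464, 0.421 and 0.409) or DESeq2 and none at an unadjusted p under 0.05 by edgeR, where 96 of 59515 transcripts (0.161%) were called, and between 0 (without A3B liver 44 or control 45) and 982 (without A3B liver 48) when 1 library was left out. Ccp110-205, a retained-intron transcript that contains the site, was at 4.17 TPM in A3B liver 48 and at 0 in the other 7 livers.

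In the pancreas, Ccp110-206 was at 0.00309 and 0.0564 TPM in controls, 0.220 and 4.03 estimated counts, and at 0.704 to 1.22 TPM in A3B mice. Its log2 fold change was 3.63 ± 1.004 (SE, adjusted p = 0.0376, edgeR), and the call was lost in 7 of the 8 fits that left out 1 library, with adjusted p-values of 0.0575 to 0.0745. The fit without control pancreas 168 kept it (adjusted p = 0.00916). With so few counts in the controls, it passed the filter through the A3B libraries and had to differ. Ccp110-202 was at 0 in control 45 and at 0.394 TPM in control 168 against 1.31 to 2.14 TPM in A3B pancreases, and its log2 fold change of 1.78 ± 1.17 (SE, edgeR) was not called (adjusted p = 0.325). Without control 168 the adjusted p was 0.000892, but the remaining control then has no count of this transcript, so it had to differ in that fit. Ccp110-203 was at 0.107 and 0.284 TPM in controls and at 0.199 to 1.05 TPM in A3B pancreases, with overlap, and its log2 fold change was −0.05 ± 0.54 (adjusted p = 0.959, edgeR).

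Tested as usage, that is as the change of a transcript relative to the rest of its gene, no transcript of either gene passed in the liver (133 of 53960 transcripts called, 0.246%) or the pancreas (3034 of 61265, 4.95%) by edgeR's diffSpliceDGE. The smallest p-values were those of Larp4-209 and Larp4-208 in the pancreas, unadjusted 0.00594 and 0.0182 and adjusted 0.0864 and 0.163, and the fitted fold of neither is a bound. Both transcripts were at 0 in the 2 control pancreases and Larp4-207 was at 0 in one of them, so they passed the filter through the A3B libraries and had to differ, and neither their p-values nor a usage test over the whole gene that includes them is support beyond the counts. Taken over the whole gene, the usage test passed for neither gene in the liver (adjusted p = 1.0 for both, with 1.88% of 11558 genes called) and passed for Larp4 in the pancreas (adjusted p = 0.0174), but so it did for 36.2% of 12877 genes, and limma's diffSplice did not call it (adjusted p = 0.449). It was lost without control pancreas 45 (adjusted p = 0.263) or 168 (adjusted p = 0.144). The gene-level adjusted p of Ccp110 in the pancreas was 0.135, and 8.1e-06 without control 168, where control 45, with no count of Ccp110-202, is the only control left. On simulated counts diffSpliceDGE called more unchanged transcripts than its threshold allows.

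**Figure D3:**
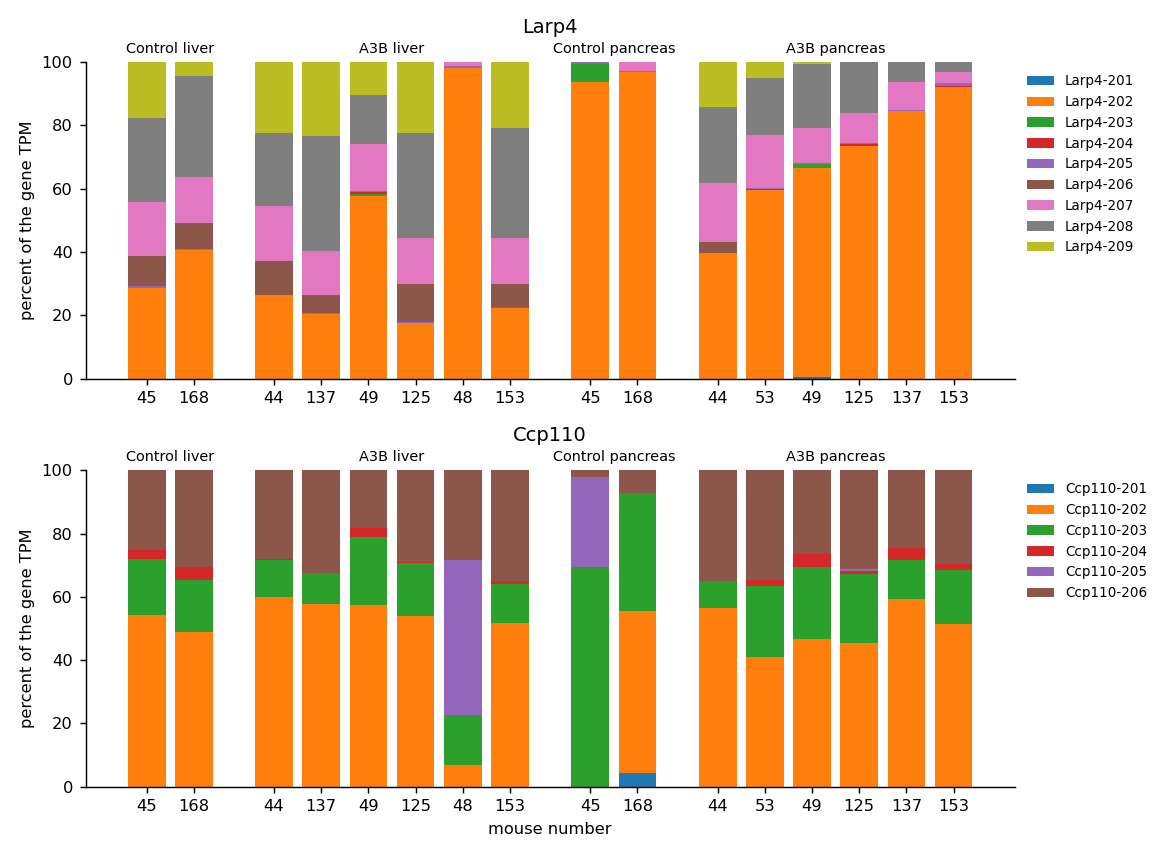
Share of the gene's TPM held by each transcript, in percent, in the 16 libraries of set 2, ordered by group and labelled by mouse number. Larp4-202 holds 93.7% and 96.9% in the control pancreases and 39.7% to 92.1% in the A3B pancreases, and Ccp110-205 appears in A3B liver 48 with 48.9%.

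The share of a gene's RNA that contains the assayed site follows from these isoforms and does not depend on library scaling. Whole libraries differed in transcript classes as well. Processed transcripts held 3.07% to 4.18% of TPM in A3B pancreases against 2.73% and 2.91% in controls, and nonsense-mediated decay transcripts held 1.84% to 2.21% against 0.791% and 0.964%. Retained-intron transcripts held 2.05% to 4.54% of TPM in A3B pancreases against 4.32% and 4.72% in controls, with overlap, and 2.66% to 4.98% in A3B livers against 2.04% and 2.27% in controls. Their part in the shares of Larp4 and Ccp110 was not tested. For Larp4 it was 45.1% and 46.4% in control livers and 39.9% to 98.2% in A3B livers (median 46.4%), and the highest was liver 48. In the pancreas it was 93.7% and 96.9% in controls and 54.0% to 92.1% in A3B mice (median 70.4%), all below both controls. The mean was 22.6 percentage points lower (exact permutation test, two-sided, p = 0.107). For Ccp110 the share was 65.3% and 72.0% in control livers and 63.9% to 79.0% in A3B livers. In the pancreas it was 92.7% and 98.0% in controls and 63.4% to 71.8% in A3B mice, a mean 27.7 percentage points lower with 6 of 6 A3B pancreases below both controls (exact permutation test, two-sided, p = 0.0357, the smallest that 6 against 2 allow, and 0.190 after adjustment over the 16 tests of shares and ratios). Of 79959 transcripts of the genes tested that share their gene with another, 11.1% had a lower share of the gene's TPM in every A3B pancreas than in both controls.

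Counted in estimated counts rather than TPM, where long transcripts weigh more, the pancreas shares differed by 6.36 percentage points for Larp4 and 5.95 for Ccp110, in the same direction. Of the short transcripts without the site, Larp4-207 drew at most 637.5 counts, Larp4-208 at most 189.6 and Ccp110-206 at most 77.6 in an A3B pancreas. Control pancreas 45 held 71 counts of Ccp110 in all, so its shares are imprecise. In 6 of the 7 mice with both tissues the Larp4 share was higher in the pancreas than in the liver, and for Ccp110 in 4 of 7.

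Ratios within a library set the 2 genes against each other and against Tbp, the gene of the TATA-binding protein, one of the housekeeping genes of the study's quantitative PCR. Tbp itself was at 6.35 and 6.66 TPM in control livers of set 2 and at 11.3 to 20.9 TPM in A3B livers, at 1.62 and 6.004 TPM in control pancreases and at 8.78 to 17.4 TPM in A3B pancreases, and at 1.77 to 4.48 TPM and 6.38 to 8.91 TPM in control and A3B livers of set 1. In these tissues Tbp thus differed between the groups in the same direction as both genes. In the lung its mean was 8.62 TPM in A3B mice and 7.41 TPM in controls, with overlap. The log2 ratio of Ccp110 to Tbp was −2.14 and −2.40 in control livers and −1.96 to −0.62 in A3B livers of set 2, a mean 0.95 higher, and −2.97 and −3.40 in control pancreases and −2.27 to −1.59 in A3B pancreases, a mean 1.29 higher. Each had all 6 A3B libraries above both controls (exact permutation test, two-sided, p = 0.0357 each, adjusted p = 0.190), an order of the ratio to Tbp shared by 3.74% of the genes tested in the liver and 24.4% in the pancreas. In the liver of set 1 the mean was 1.89 higher with 3 of 3 above every control (exact p = 0.1, the smallest that 3 against 3 allow), as for 3.20% of the genes tested. In the lung it was 0.24 higher with overlap (exact p = 0.200).

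Against Tbp, Larp4 overlapped between groups in both tissues of set 2, with means 0.17 higher in A3B livers (exact permutation p = 0.643) and 0.28 higher in A3B pancreases (exact permutation p = 0.607). In set 1 its ratio lay higher in all A3B libraries, by 0.47 in the liver and 0.95 in the lung (exact permutation p = 0.1 each), where 11.1% of the genes tested in the lung had that order. The log2 ratio of Ccp110 to Larp4 was 0.78 and 1.01 higher in A3B livers and pancreases of set 2, with overlap (exact permutation p = 0.393 and 0.143), and it ranged from 0.41 to 0.95 and from 0.17 to 1.84 with 1 library left out. In set 1 it was higher in all A3B livers, by 1.42, and lower in all A3B lungs, by 0.71 (exact permutation p = 0.1 each, adjusted p = 0.190). A ratio to Larp4 that was higher in all A3B livers was found for 1.56% of the genes tested, and one that was lower in all A3B lungs for 86.1%.

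**Figure D4:**
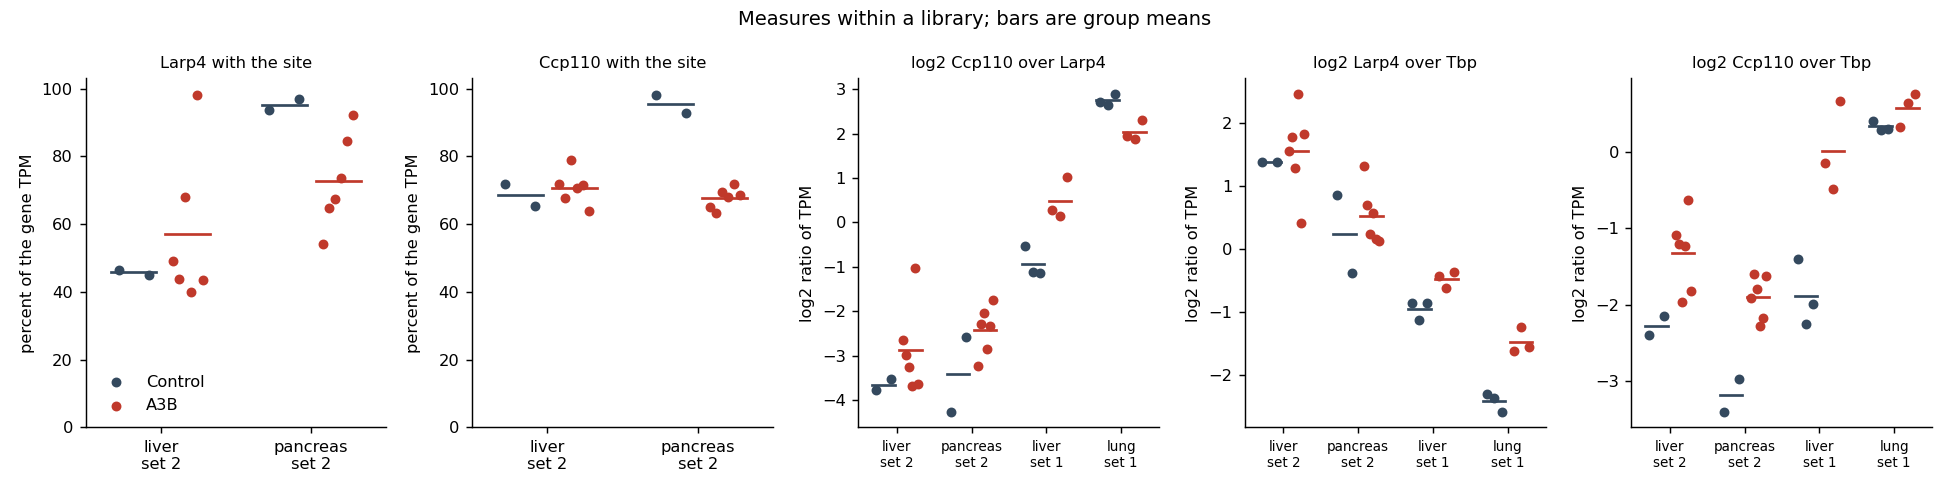
Share of the gene's TPM that contains the site (2 panels, set 2) and log2 ratios of TPM between Ccp110, Larp4 and Tbp (3 panels, all 28 libraries), with group means as bars. Ccp110 over Tbp is higher in all A3B libraries than in controls except in the lung, and the site share of Ccp110 in the pancreas is 63.4% to 71.8% in A3B mice against 92.7% and 98.0% in controls.

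In the pancreas, calls of a lower level were made under TMM, and with total counts 13473 genes were called higher and 210 lower, so each lower gene below is also given in TPM. Pabpc1, the poly(A)-binding protein bound by LARP4, was called higher in A3B pancreases (0.82 ± 0.26, SE, adjusted p = 0.0325, edgeR) and A3B lungs (0.29 ± 0.08, adjusted p = 0.0328, limma), and was at −0.27 (adjusted p = 0.640) and 0.64 (adjusted p = 0.223) in the livers of set 2 and set 1. Rack1, a ribosomal scaffold protein that also binds LARP4, was called lower in A3B pancreases (−1.68 ± 0.33, adjusted p = 0.00365, edgeR), but its mean TPM was higher there, at 1428 against 983, with overlap. Cep97, the capping partner of CP110, was called lower in A3B pancreases (−0.87 ± 0.25, adjusted p = 0.0233, edgeR) and was at 0.07, 0.57 and 0.12 in the liver of set 2, the liver of set 1 and the lung, not called. In TPM, Cep97 was higher in every A3B pancreas, at 2.0 to 3.42 against 0.849 and 1.76 TPM. Kif24, a kinesin that restrains cilia with CP110, was called in 1 of the 3 comparisons that tested it, the lung, where it was higher (0.45 ± 0.10, adjusted p = 0.0167, limma). Cep290, a transition-zone protein, was at 0.44, −0.39 and 0.21 in the liver of set 2, the pancreas and the lung, not called (adjusted p = 0.690, 0.301 and 0.295).

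Among the 15 other La-related and poly(A) proteins, none of 14 tested was called in the liver of set 2 by edgeR, with 2 at an unadjusted p under 0.05, and 3 were higher and 5 lower among 15 in the pancreas, where 31.9% of all genes were called. Those with the smallest p in the pancreas were Paip2b, an inhibitor of PABPC1 (−1.41 ± 0.22, SE, adjusted p = 0.00124), Rack1, Pabpc4, another cytoplasmic poly(A)-binding protein (−1.72 ± 0.35, adjusted p = 0.00467), and Pabpn1, its nuclear counterpart (−0.99 ± 0.30, adjusted p = 0.0294). All of them were higher in mean TPM in A3B than in control pancreases, Paip2b at 19.9 against 11.4, Pabpc4 at 45.1 against 39.3 and Pabpn1 at 83.1 against 26.0 TPM. Its members had a median of 0.27 in liver and −0.04 in pancreas on the log2 scale, beside 0.21 and 0.09 for all genes. In set 1, 2 of 14 were called, both higher, in the liver, and 4 higher and 2 lower of 13 in the lung, beside 7.93% and 36.8% of all genes. The 2 in the liver were Ssb, which encodes the La protein (1.32), and Paip1, a PABPC1-binding translation factor (1.28).

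Of the 26 genes of deadenylation and decay, which shorten poly(A) tails and degrade messenger RNA, none was called in the liver of set 2, with 6 at an unadjusted p under 0.05, and 10 were higher and 1 lower in the pancreas, beside 3.66% and 31.9% of all genes called. Btg2, which recruits the CCR4-NOT deadenylase, was at 4.35 ± 1.13 (SE, adjusted p = 0.0641, edgeR) in the liver and 2.98 ± 0.35 (adjusted p = 0.000318, edgeR) in the pancreas, and was called in the liver of set 1 at 3.84 (adjusted p = 0.0109, limma). Zfp36, which brings deadenylases to AU-rich transcripts, was called in the pancreas (1.5) and Dcp2, the decapping enzyme, likewise (1.35), whereas Cnot10, a CCR4-NOT subunit, was lower (−1.003) although its mean TPM was higher, at 13.9 against 5.4. The medians were 0.40 and 0.46 in liver and pancreas. In set 1, 2 of 25 were higher and none lower in the liver, and 7 higher and 1 lower of 25 in the lung, beside 7.93% and 36.8% of all genes called.

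Of the 33 other genes of CP110 control and centriole assembly, 1 was called in the liver of set 2, 3 were higher and 4 lower in the pancreas, 2 of 27 were higher and none lower in the liver of set 1, and 4 were higher and 8 lower of 31 in the lung. Of all genes, 3.66%, 31.9%, 7.93% and 36.8% were called in these comparisons. The one in the liver was Ofd1, a distal centriole protein (1.86 ± 0.33, SE, adjusted p = 0.0204, edgeR), which was also called in the liver of set 1 (1.56). Fbf1, a distal appendage protein, was at 1.04 (adjusted p = 0.0777) and 2.60 (adjusted p = 0.0204) in these livers. In the pancreas Cep120, a centriole elongation factor (0.95), and Cep83, which anchors distal appendages (0.92), were higher, and Cetn2 (−1.97) and Cetn3 (−0.77), the centrins, were lower under TMM, with mean TPM of 18.5 against 14.4 and 55.5 against 24.1, higher in A3B. Ccnf, whose product targets CP110, was at −1.72 (adjusted p = 0.108) in the liver of set 2 and 0.45 (adjusted p = 0.533) in the pancreas. The medians were 0.30 and 0.10 in liver and pancreas of set 2.

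Of 17 cell-cycle genes, none was called or had an unadjusted p under 0.05 in the liver of set 2, and 4 were higher in the pancreas, beside 31.9% of all genes called. These were Mcm2 (1.35), Mcm3 (2.59) and Mcm5 (1.97), subunits of the replicative helicase, and Ccne1 (1.97), which encodes cyclin E. In the liver and lung of set 1, 1 of 11 and 2 of 16 were called, all lower, beside 7.93% and 36.8% of all genes.

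Over the 16 libraries of set 2, with log2 CPM centred on the mean of each tissue, the genes most like Larp4 among 10956 expressed in both tissues were Ddx20 (Pearson r = 0.914), Retreg1 (0.913), Zbtb11 (0.905), Cog3 (0.901) and Bclaf1 (0.895). Those most like Ccp110 were Rbm12 (0.947), D10Wsu102e (0.929), Rbm12b1 (0.928), 3110001I22Rik (0.920) and Gm42927 (0.907). The r between Larp4 and Ccp110 was 0.609. These values describe libraries that share mice, sequencing depth and scaling factors, and carry no test. Within the pancreas alone the r with Larp4 was between 0.610 (Zbtb11) and 0.897 (Cog3) for these 5 genes, against 0.908 to 0.970 within the liver. The r with Ccp110 was between 0.791 (Rbm12) and 0.945 (Rbm12b1), against 0.914 to 0.983 within the liver.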

How the data were processed

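RNA-seq libraries were made from total RNA with a stranded kit. For set 2 the authors quantified reads against mm10 with kallisto and deposited, per transcript, an estimated count and a TPM value, neither normalized further between libraries. For set 1 the authors deposited TPM per gene, computed from read counts with GenomicFeatures and GenomicAlignments after STAR alignment, so its depth is unknown. Of 119414 transcripts, 116640 matched GENCODE M21. Estimated counts were summed per gene symbol and rounded, filtered with filterByExpr, scaled by TMM and tested with edgeR's robust quasi-likelihood test within each tissue, and over 16 libraries for the interaction. Transcripts were tested likewise, and their usage with diffSpliceDGE. Set 1 was tested with limma on log2(TPM + 1) for genes averaging 1 TPM or more. Fold changes on that scale understate changes of low genes. The threshold was an adjusted p of 0.05 (Benjamini-Hochberg). Shares and ratios were compared with exact permutation tests.

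The genes, the gene lists and the tests were chosen with earlier results of these data known. Named genes were Larp4, Ccp110, their transcripts (in full from a group mean of 0.1 TPM), the transgene, Tbp, 5 direct partners (Cep97, Kif24, Cep290, Pabpc1 and Rack1), up to 4 genes with the smallest p per list in set 2, and the 5 most alike by Pearson r among genes with a mean of at least 5 CPM. Fits were tested on simulated counts. Alternatives were total-count scaling, DESeq2, no filter, length-scaled counts, limma on TPM, another pseudocount, median centring, a block for mouse and leaving out each library. Mouse numbers pair tissues because the same animals gave both. The correlation of deviations from group means was −0.00478 to 0.280 in the 5 A3B mice with liver and pancreas, and 0.187 and 0.248 in mice 70 and 91. It was lowest in mouse 49. Between different A3B mice of set 2 it was −0.208 to 0.302, highest for liver 49 with pancreas 53. Between different mice of set 1 it was −0.300 to 0.275 (A3B) and −0.183 to 0.101 (control). No 2 libraries held identical values. The samples are separate animals within a group, and intervals from counts are not given because estimated counts share reads between transcripts. Analyses ran in R 4.3.3 (edgeR 4.0.16, limma 3.58.1, DESeq2 1.42.0) and in Python 3.11.15, where pandas 2.3.3 and numpy 2.4.6 handled tables and matplotlib 3.10.9 drew figures.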

Additional observations from a re-analysis of the deposited data

Results flagged for a closer look

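One result was taken up because the A3B effect differed between tissues, and 6 because 1 A3B library lay far from the 5 others of its group by Dixon's criterion, which chance meets in about 1 of 20 groups and was applied to 36. The A3B effect on Ccp110 was smaller in lung than in liver by 1.90 on the log2 scale (−1.90, limma). Larp4 drew 9995 estimated counts in A3B pancreas 125, against 6102 in the next library, and Larp4-202 was at 19.1 TPM there, against 12.5 TPM. Larp4-209 was at 3.14 TPM in A3B pancreas 44, against 0.804 TPM in the next, and Larp4-206 was at 0.742 TPM in the same library and at or near 0 in the other 5. Ccp110-205 was at 4.17 TPM in A3B liver 48 and at 0 in the other 5 A3B livers. The same transcript was at 0.0231 TPM in A3B pancreas 125, which is 4.26 estimated counts, and at 0 in the other 5.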

How the results depend on the processing

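Total-count scaling moved the median of all genes to 2.29 (pancreas; 0.09 under TMM) and to 1.59 (pancreas minus liver; 0.03 under TMM), and signs turned with that shift. Relative to the median, Larp4 stayed at −0.43 and −0.35 in the pancreas under TMM and total counts. With length-scaled counts it was at −0.064, and by limma on TPM at 0.77. The pancreas minus liver difference, relative to the median, stayed at −1.41 and −1.27 for Larp4 and −1.25 and −1.34 for Ccp110 under TMM and total counts. Unadjusted for the median, Larp4 in the pancreas (−0.34) turned to 1.93 with total counts, 0.043 with length-scaled counts and 2.01 by limma on TPM, and Ccp110 became called at 2.51 and 1.61 with total counts and limma. With total counts the pancreas minus liver difference turned to 0.32 for Larp4 and 0.25 for Ccp110, Larp4 and Ccp110 in the liver of set 2 were called at 1.61 and 2.26, and Larp4-202, Larp4-205 and Ccp110-203 in the pancreas and Larp4-205 in the liver turned to 1.80, 1.82, 1.72 and 0.59. DESeq2 called Ccp110 in the liver (1.76) and the Larp4 difference (−1.47). Without a filter Larp4 (1.46) and Ccp110 (2.31) lost their calls in the liver of set 1, as did Larp4 after median centring (1.004). By estimated counts the Ccp110 site share in the liver differed by −0.251 percentage points. By limma's diffSplice the relative usage of Larp4-202 and Larp4-207 in the liver turned to 1.04 and 0.23. Beyond the scaling itself, the cause was not tested.

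Leaving out 1 library gave 0.82 to 1.27 and 1.58 to 1.97 for Larp4 and Ccp110 in the liver of set 2, −0.56 to −0.05 and 0.05 to 1.13 in the pancreas, 1.32 to 1.73 and 2.14 to 2.61 in the liver of set 1, 0.72 to 0.83 and 0.36 to 0.48 in the lung, −0.95 to −0.55 and −2.20 to −1.73 for lung minus liver, and −1.57 to −1.07 and −1.65 (without control pancreas 45) to −0.52 (without control pancreas 168) for pancreas minus liver. Relative to the median, the Ccp110 values without these controls were −1.76 and −0.90. Site shares in the pancreas differed by −26.5 to −18.8 points for Larp4 (exact p = 0.0476 without A3B pancreas 153) and by −30.3 to −25.0 for Ccp110, and that of Ccp110 in the liver by −1.20 to 5.42. Ccp110 over Tbp ranged from 0.81 to 1.08 in the liver and 1.07 to 1.5 in the pancreas of set 2, and Larp4 over Tbp from −0.013 to 0.40 and from −0.34 to 0.90. Among transcripts not called, those that changed sign ranged from −0.47 to 0.63 (Larp4-205) and −0.034 to 1.16 (Larp4-206) in the liver and from −0.25 to 0.12 (Larp4-202), −0.81 to 0.73 (Larp4-205) and −0.27 to 0.074 (Ccp110-203) in the pancreas. Relative usage did so in the liver for Larp4-202 (−0.39 to 0.018), Larp4-206 (−0.73 to 0.11), Larp4-207 (−0.31 to 0.094), Larp4-208 (−0.31 to 0.21), Ccp110-202 (−0.18 to 0.12), Ccp110-203 (−0.32 to 0.12) and Ccp110-206 (−0.045 to 0.40), and in the pancreas for Larp4-205 (−0.72 to 0.46).

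With mouse as a replicate block the pancreas minus liver difference was −1.26 for Larp4 and −0.91 for Ccp110, and lung minus liver −0.67 and −2.08, and no call of either gene changed. Counts of called genes moved from 636 to 1120 (total counts) and 2396 (DESeq2) in the liver of set 2, from 6093 to 13683 (total counts) and 12923 (limma) in the pancreas, from 2368 to 8068 and 3762 (total counts and DESeq2) for their difference, from 1448 to 2607 for lung minus liver with the block, and from 913 to 54 in the liver of set 1 without a filter. Called transcripts moved from 96 to 3 (total counts) and 3589 (DESeq2) in the liver and from 11002 to 24543 and 17302 in the pancreas. With 1 library left out, called genes ranged from 73 (without control 168) and 74 (without control 45) to 1599 (without A3B liver 49) in the liver of set 2, from 3829 (without control 45) to 5820 in the pancreas, from 1 (without control 91) to 1562 (without control 11) in the liver of set 1, from 2998 (without A3B lung 69) to 4579 in the lung, from 545 (without control liver 45) to 3405 (without A3B liver 49) for pancreas minus liver and from 571 (without control liver 92) to 3072 (without A3B liver 70) for lung minus liver. Called transcripts ranged from 0 (without A3B liver 44 or control 45) to 982 (without A3B liver 48) in the liver and from 6985 (without control 45) to 14054 (without control 168) in the pancreas, while usage calls in the liver fell to 37 without control 168 and were most numerous without A3B liver 48, and those in the pancreas lay between 2088 and 3896. Depth limits the shares of Ccp110 in control pancreas 45, which held 71 counts.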
